A study of Mus musculus with 4 samples.

Results

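The mucin/ductal progenitors of tuft and endocrine cells are the cells that the authors' deposited labels call MucinDuctalProgenitor. There are 156 of them among the 2586 cells in the authors' table of tuft and enteroendocrine cells, among 13362 labelled EYFP-positive cells and among 21140 cells in the whole series. They come from 4 mice of genotype Ptf1aCre-ERTM;ROSAYFP/+, backcrossed into CD-1, in which a tamoxifen-inducible Cre expressed from Ptf1a switches on the fluorescent protein EYFP. Tamoxifen was given by oral gavage to mark acinar cells, which make the digestive enzymes. Pancreatitis was then induced with injected caerulein, a peptide that overstimulates acinar cells, in mice that were 10 weeks old when injury began. Treatment lasted 2 weeks in 2 mice and 4 weeks in 2 mice, and living EYFP-positive cells were sorted from each pancreas for single-cell 3′ RNA sequencing. The sources used here name no untreated mouse and no batch, so the progenitors were set beside other cell types of the same mice and were compared between the treatment times. Cells that had no Ptf1a when tamoxifen was given carry no mark in this model, and the labels do not give the share of acinar cells that was marked.

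Under repeated injury acinar cells can lose their enzymes and take on duct-like and mucous, gastric-like states, a process called acinar-to-ductal metaplasia. Tuft cells are chemosensory epithelial cells whose identity needs the transcription factor Pou2f3, and enteroendocrine cells are hormone-producing cells whose formation starts with the transcription factor Neurog3. Notch signalling, acting through the repressor Hes1, is known to hold back Neurog3 in pancreatic progenitors, and Sox4 is a transcription factor with known roles in the formation of both endocrine and tuft cells.

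The progenitors were spread unevenly over the mice. There were 5 in 2-week mouse 1, 118 in 2-week mouse 2, 13 in 4-week mouse 1 and 20 in 4-week mouse 2, so 118 of 156 cells come from 1 animal. Levels are given as CPM, the unique molecular identifiers (UMIs, counted RNA molecules) of a gene summed over the progenitors of a mouse and divided by all their UMIs, scaled to a library of 1000000, in the order 2-week mouse 1, 2-week mouse 2, 4-week mouse 1 and 4-week mouse 2. The sums rest on 72021, 3197695, 190181 and 301573 UMIs, so that 1 UMI is worth 13.9, 0.313, 5.26 and 3.32 CPM, and a low value in 2-week mouse 1 carries the largest counting error. The median progenitor held 14008, 20946, 14178 and 13971 UMIs, against 19304, 21810, 15110 and 15305 in MucinDuctal cells. The deepest progenitor, with 104232 UMIs in 2-week mouse 2, lay below the deepest MucinDuctal cell of that mouse, with 150675. None of the 67 cell barcodes found in more than 1 library belonged to a progenitor.

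All 156 progenitors held EYFP transcripts, the lineage mark. So did all 3983 MucinDuctal, 391 EEC-Progenitor and 210 Tuft-1 cells, which also come from the labelled EYFP-positive cells. The count therefore follows the choice of cells, and the immune cells used next were taken from outside that set. EYFP stood at 458, 303, 373 and 361 CPM in the progenitors and at 18.6, 18.2, 27.1 and 55.5 CPM in 3352 cells without a label that carry immune markers. These immune cells serve as a measure of free RNA, since they should lack epithelial transcripts. The measure is imperfect: 344 of the 3352 held an EYFP UMI, among them 132 of the 798 in 4-week mouse 2. Whether some are mixed droplets was not tested. Defining markers of other cells in the gate were near 0 in the progenitors. The list of 14 immune genes summed to 13.9, 78.5, 15.8 and 6.63 CPM, against 15449 to 19041 CPM in the immune cells, and Ptprc, the pan-leukocyte gene CD45, was at 0 in 3 of 4 mice. The list of 14 stromal genes summed to between 13.3 and 113 CPM.

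The 3 genes that mark the label were present at different strengths. Sox4 was at 2694, 2969, 4669 and 4397 CPM in the progenitors and at 211, 435, 223 and 206 CPM in MucinDuctal cells, the mucin-producing duct-like cells of the same pancreata. Every progenitor sample lay above every MucinDuctal sample, and all 156 progenitors had at least 1 Sox4 UMI. EEC-Progenitor cells, the Neurog3-positive endocrine progenitors, stood at 3732, 3866, 3360 and 3459 CPM, a range that overlaps that of the mucin/ductal progenitors. Tuft-1 cells, 1 of the 3 deposited tuft states, stood lower at 1568, 1984, 1138 and 1181 CPM. Of the 194 Sox4 UMIs in progenitors of 2-week mouse 1, 109 came from 1 of its 5 cells. Without that cell the level there was 1407 CPM, below the 1568 CPM of its Tuft-1 cells, which were at 1267 CPM without their own top cell. Over the 10 types with a deposited name that were compared, the mean Sox4 level of the mucin/ductal progenitors ranked first (3682 ± 995, SD, n = 4 mice), with EEC-Progenitor cells next (3604 ± 235), and these neighbours did not differ beyond their spread.

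Sox9, a transcription factor of ducts and pancreatic progenitors that is also expressed in tuft cells, was at 444, 621, 789 and 537 CPM. MucinDuctal cells held 780, 531, 647 and 599 CPM and Tuft-1 cells 672, 761, 547 and 630 CPM, so the 3 types overlapped. EEC-Progenitor cells stood apart at 144, 109, 91.3 and 99.7 CPM. Muc6, the gel-forming mucin of gastric gland mucous cells, was at 83.3, 721, 1420 and 491 CPM. That was below the same mouse's MucinDuctal cells in every mouse (4761, 2057, 6601 and 4115 CPM). The immune cells held 50.7, 177, 266 and 362 CPM of Muc6. The summed progenitors stood above the immune cells of their own mouse in all 4 mice. In 4-week mouse 2 this rests on 1 cell with 99 Muc6 UMIs, and no other progenitor there held more than 14. Tuft-1 cells held less Muc6 than the immune cells, at 6.79, 40.5, 49.7 and 143 CPM. The 83.3 CPM of 2-week mouse 1 rest on 6 UMIs, of which 1 of its 5 cells held 5. That level lay inside the range of the immune cells over the 4 mice.

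**Figure D1:**
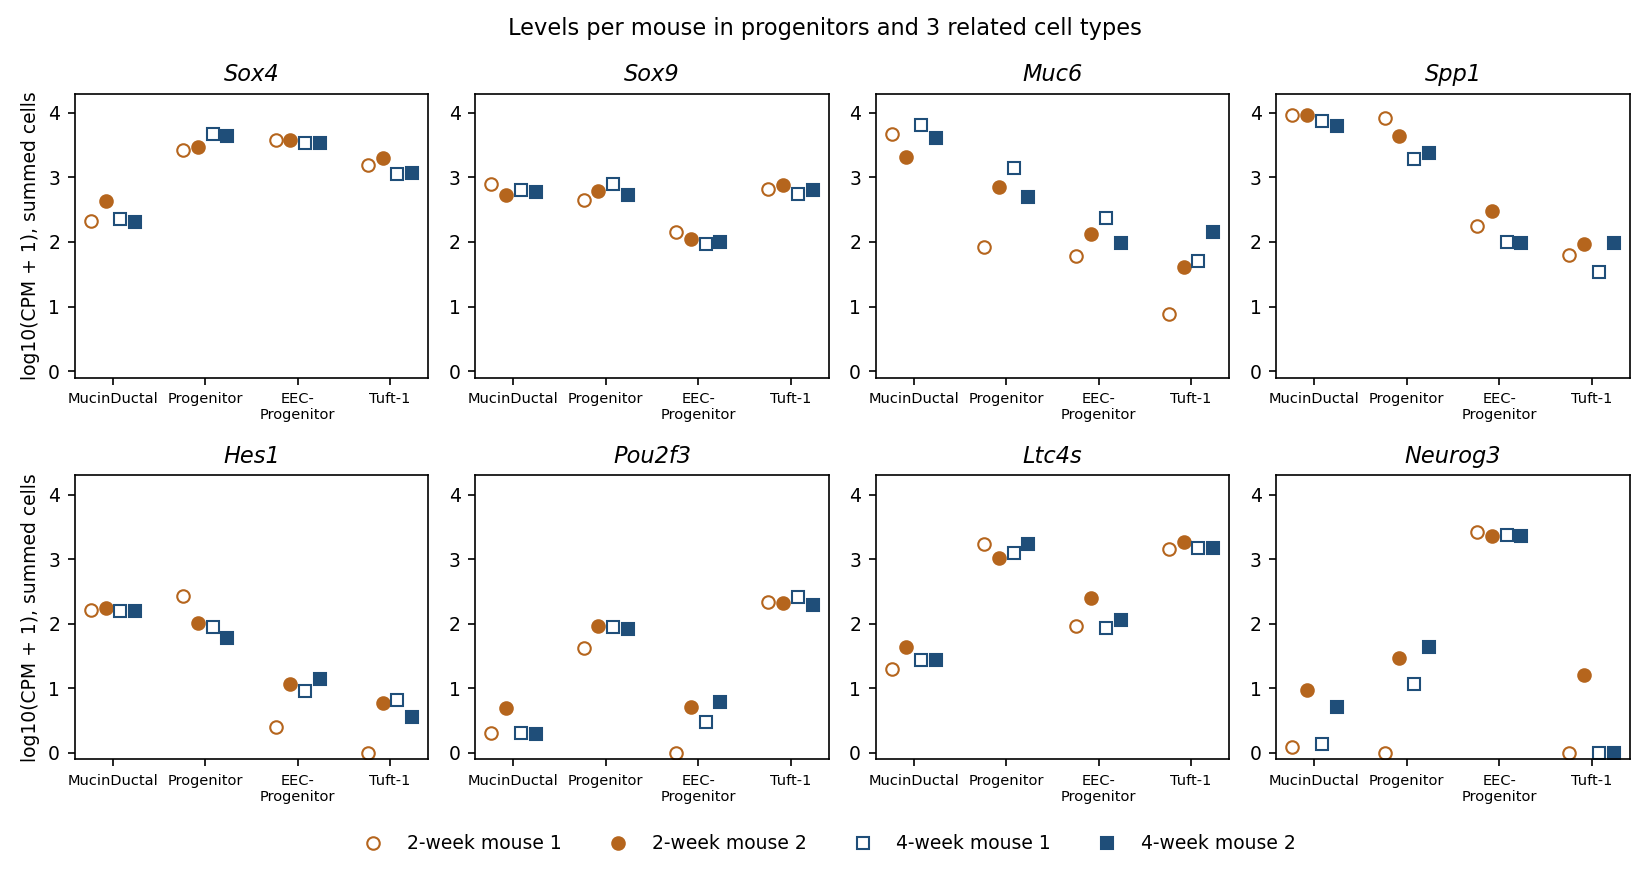
Levels of 8 genes in the 4 mice (points, log10 of CPM + 1) for MucinDuctal cells, mucin/ductal progenitors, EEC-Progenitor cells and Tuft-1 cells. Progenitors share high Sox4 with EEC-Progenitor cells, high Ltc4s with Tuft-1 cells and Spp1 above EEC-Progenitor and Tuft-1 cells with MucinDuctal cells, and hold Neurog3 at no more than 43.1 CPM.

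To compare types within a mouse, the log2 ratio of levels was taken after adding 10 CPM to each, in the 3 mice with at least 10 cells of both types; 2-week mouse 1 is left out of these ratios. They are given as mean ± SD over those 3 mice. No test was run between types, because these counts were also used to define the types. A gene is called higher or lower here when its ratio was beyond 1 on the log2 scale in each of the 3 mice. Genes had enough counts when their mean was at least 10 CPM in either type. A gene that passed only through the other type could hardly be called higher in the progenitors. Of 8570 genes with enough counts against MucinDuctal cells, 123 (1.44%) were higher in the progenitors and 28 (0.327%) were lower, and the median gene stood at 0.14. Against EEC-Progenitor cells 241 of 9220 genes (2.61%) were higher and 410 (4.45%) lower, with a median of -0.19. Against Tuft-1 cells 178 of 8820 genes (2.02%) were higher and 181 (2.05%) lower, with a median of -0.04.

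The mucous program was kept at a reduced level. The list of 13 genes of spasmolytic polypeptide-expressing metaplasia (SPEM), a mucous neck-type gastric state, summed to 24479, 24519, 35082 and 22048 CPM in the progenitors. MucinDuctal cells held 173301, 55479, 209910 and 141892 CPM, so each progenitor sample was below its own mouse's MucinDuctal cells (log2 ratio -2.15 ± 0.84). Of the 13 genes, 6 were lower and none was higher, with a median of -1.22 over the members. The 6 were Muc6, Tff2, Aqp5, Gkn3, Pgc and Agr2. Tff2, the trefoil peptide that gives SPEM its name, was at 1833, 4162, 3844 and 3359 CPM in progenitors and at 37112, 12794, 53122 and 36785 CPM in MucinDuctal cells. Gkn3, a gastrokine of gastric mucous neck cells, was at 1958, 6644, 11778 and 6788 CPM against 56426, 18196, 65417 and 52398 CPM. Agr2, a disulfide isomerase needed for mucin folding, was not detected in 2-week mouse 1 and stood at 1208, 500 and 431 CPM in the others, against 3492 to 6384 CPM in MucinDuctal cells.

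Against the other 2 types the same program was high. The SPEM list was 2.37 ± 0.54 above EEC-Progenitor cells on the log2 scale, with 9 of 13 genes higher, 1 (Tff3) lower and a member median of 2.25. It was 3.94 ± 0.45 above Tuft-1 cells, with 9 of 13 higher, none lower and a member median of 3.12. In both comparisons 12 of the 13 genes had enough counts. Pgc, the gastric protease precursor pepsinogen C, varied widely between mice. Its level in progenitors was 1236, 237, 3718 and 3959 CPM, and in MucinDuctal cells 58139, 1252, 66986 and 30113 CPM. In both types 2-week mouse 2, which holds most progenitors, was the lowest. By the rule for naming genes, the progenitors' other largest deficits against MucinDuctal cells were Pga5 (-2.34 ± 0.25), Wfdc18 (-2.37 ± 1.03), Tesc (-1.87 ± 0.46), Cblif (-2.42 ± 1.23) and Cpn1; Pga5 and Cblif encode a pepsinogen and gastric intrinsic factor.

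Duct genes did not share that deficit as a group. The 16 duct genes summed to 13468, 12932, 9228 and 10638 CPM in progenitors and to 15012, 17653, 13652 and 13643 CPM in MucinDuctal cells (-0.46 ± 0.10). Of the 16, 2 were lower, Spp1 and Car2, and none was higher, with a member median of 0.12. Spp1, the secreted phosphoprotein osteopontin, was at 8303, 4395, 1940 and 2411 CPM in progenitors, against 9356, 9179, 7517 and 6241 CPM. Those levels were above the 439 to 1014 CPM of the immune cells in each mouse. EEC-Progenitor cells held 95.5 to 301 CPM of Spp1 and Tuft-1 cells 33.2 to 94.8 CPM, so the gene was 4.17 ± 0.35 and 5.16 ± 0.54 higher in the progenitors on the log2 scale. Car2, the carbonic anhydrase of bicarbonate secretion, was at 83.3, 274, 184 and 73.0 CPM against 646 to 1062 CPM in MucinDuctal cells. Clu, the secreted chaperone clusterin that injured epithelium makes, was at 14565, 9376, 12551 and 5999 CPM. This overlapped the 9800 to 14394 CPM of MucinDuctal cells and lay above the 159 to 370 CPM of Tuft-1 cells.

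Several secreted and junction proteins of the mucin/ductal state separated the progenitors from Tuft-1 cells. Cldn2, a pore-forming tight junction claudin, was at 264, 334, 347 and 186 CPM in progenitors and at 0, 9.21, 0 and 0 CPM in Tuft-1 cells. Ttr, the thyroid hormone carrier transthyretin, was at 819, 886, 894 and 965 CPM against at most 20.5 CPM. Pigr, the receptor that carries immunoglobulin A across epithelium, was 3.35 ± 0.79 higher. Cxcl17, Spink4, Sftpd and Gm43305 completed the named genes of this direction, together with Clu, Spp1 and Gkn3. Keratins went the other way: of the duct list, Krt8 and Krt18 were lower than in Tuft-1 cells, and Krt18 stood at 1347, 2558, 2250 and 2580 CPM against 6957 to 8090 CPM.

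**Figure D2:**
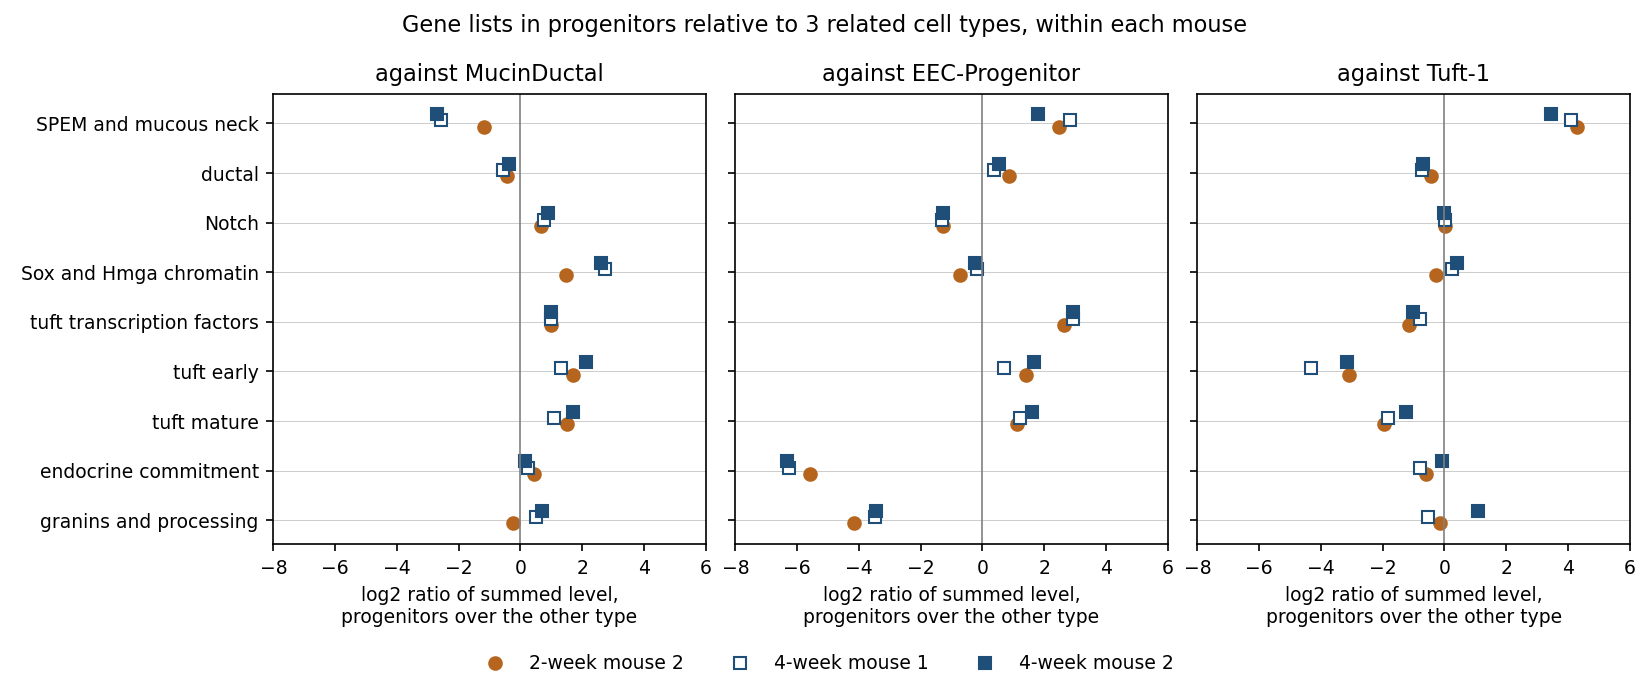
Summed levels of 9 gene lists in progenitors relative to MucinDuctal, EEC-Progenitor and Tuft-1 cells (log2 ratio with 10 CPM added, 1 point for each of 3 mice; 2-week mouse 1 is left out). The SPEM list lies below 0 against MucinDuctal cells and above 0 against the other types, tuft lists lie between MucinDuctal and Tuft-1 cells, and the endocrine commitment list lies near -6 against EEC-Progenitor cells.

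Genes of the Notch pathway showed a mixed state. Hes1, the repressor through which Notch holds back differentiation, was at 264, 102, 89.4 and 59.7 CPM in the progenitors, and MucinDuctal cells held 163, 172, 154 and 154 CPM. The progenitors were the higher in 2-week mouse 1 and the lower in the other 3 mice. In 2-week mouse 1 a single cell held 17 Hes1 UMIs and no other of the 5 held more than 1, so that value rests on 1 cell. EEC-Progenitor cells had at most 12.8 CPM and Tuft-1 cells at most 5.53 CPM, both below the 17.1 to 24.9 CPM of the immune cells. Hes1 was therefore above the level of immune cells in progenitors and MucinDuctal cells and below it in the other 2 types, each taken whole. Whether immune cells make Hes1 themselves was not tested, so the lower values do not show its absence. Hes6, an inhibitor of Hes1 associated with neuronal and endocrine differentiation, was at 222, 237, 221 and 308 CPM, above the 48.2 to 57.6 CPM of MucinDuctal cells and below the 804 to 969 CPM of EEC-Progenitor cells. Lfng, a glycosyltransferase that modifies Notch receptors, was at 125, 55.0, 52.6 and 79.6 CPM against 9.53 to 11.1 CPM in MucinDuctal cells; immune cells held 40.7 to 64.1 CPM. Lfng and Hes6 were the 2 genes of the 22-gene Notch list that were higher than in MucinDuctal cells; none was lower, 13 were too low to compare, and the member median was 0.15. Against EEC-Progenitor cells Hes1 was higher and Dll3, Mfng and Hes6 were lower. Against Tuft-1 cells Hes1 alone of the list was higher and none was lower.

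Part of the tuft program was present. Pou2f3, the master regulator of tuft cells, was at 41.7, 90.1, 89.4 and 82.9 CPM in the progenitors. MucinDuctal cells held 1.04, 3.91, 1.06 and 0.986 CPM, EEC-Progenitor cells 0 to 5.11 CPM, and immune cells 0.341 to 4.67 CPM. Tuft-1 cells held 217, 208, 254 and 195 CPM. The progenitors thus stood above MucinDuctal cells and below Tuft-1 cells in every mouse (log2 ratios 3.03 ± 0.17 and -1.22 ± 0.16 over 3 mice). In 2-week mouse 1 all Pou2f3 UMIs, 3, came from 1 cell. In 4-week mouse 1 a single cell held 9, and no other more than 3. Over the deposited types Pou2f3 was highest in the 3 tuft states, with the progenitors next (76.0 ± 23.1 CPM, SD, n = 4 mice), and the type after them, Delta (Sst+) cells, held a mean of 6.73 CPM.

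Other genes of the tuft transcription factor list ranged from above to below their Tuft-1 level. The list also holds Nrep, which does not encode a transcription factor. Ascl2, a transcription factor of intestinal stem cells and tuft cells, was at 181, 133, 137 and 179 CPM, against 136, 114, 99.5 and 69.1 CPM in Tuft-1 and 31.8 to 48.4 CPM in MucinDuctal cells. Each progenitor sample was above its own mouse's Tuft-1 cells. Myb was at 69.4, 86.9, 110 and 113 CPM, against 122 to 149 CPM in Tuft-1 and at most 11.9 CPM in MucinDuctal cells. Nrep reached 250, 386, 389 and 464 CPM, between the 21.0 to 48.5 CPM of MucinDuctal and the 862 to 1197 CPM of Tuft-1 cells. Pou2f3, Ascl2, Myb and Nrep were the 4 of the 10 listed genes that were higher than in MucinDuctal cells. None was lower, 1 was too low to compare and the member median was 0.97.

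The factors of later tuft cells were low. Spib was at 0, 28.1, 0 and 3.32 CPM, against 254 to 322 CPM in Tuft-1 cells and 15.6 to 26.3 CPM in immune cells, which express it themselves. Hmx2 and Hmx3, homeobox genes of tuft cells, were at 0 in 2-week mouse 1 and 4-week mouse 1 and reached 13.3 and 39.8 CPM in 4-week mouse 2. Against Tuft-1 cells, 5 of the 10 genes of the tuft transcription factor list were lower, namely Pou2f3, Spib, Hmx2, Hmx3 and Nrep. None was higher, and the member median was -1.27.

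Among the effectors of tuft cells, Ltc4s was within the range of Tuft-1 cells or below it, and others were far lower. Ltc4s, the synthase that makes leukotriene C4, was at 1736, 1024, 1251 and 1724 CPM, against 1452, 1829, 1492 and 1475 CPM in Tuft-1 cells. The 2 ranges overlapped, and 2-week mouse 2, which holds most progenitors, was below its own Tuft-1 cells. Every Tuft-2 and Tuft-3 sample, at 2243 to 3220 CPM of Ltc4s, was above every progenitor sample. MucinDuctal cells held 18.8 to 42.0 CPM (5.01 ± 0.65). Trpm5, the cation channel that depolarises tuft cells, was at 194, 81.9, 99.9 and 159 CPM, against 2.32 to 4.56 CPM in MucinDuctal and 155 to 241 CPM in Tuft-1 cells. Gnat3, the taste G protein gustducin, was at 13.9, 135, 42.1 and 156 CPM against 1585 to 1940 CPM in Tuft-1 cells, and was the lower in each mouse. Gng13, its partner gamma subunit, was at 69.4, 265, 94.6 and 172 CPM against 912 to 1323 CPM. Avil, the actin-bundling protein advillin of the tuft apical bundle, was at 41.7, 152, 116 and 179 CPM against 566 to 930 CPM. Rgs13, a regulator of G protein signalling, was at 0, 105, 5.26 and 19.9 CPM against 1995 to 4294 CPM, and in 3 of 4 mice lay below the 8.70 to 50.2 CPM of that mouse's immune cells.

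Many products of mature tuft cells were also low, although their summed level, which includes Ltc4s, was less reduced than that of the early tuft genes (-1.68 ± 0.39 and -3.52 ± 0.70 log2 against Tuft-1 cells, mean ± SD, n = 3 mice). Dclk1, a widely used tuft marker, was at 0, 38.5, 15.8 and 0 CPM in progenitors, 9.50 to 36.5 CPM in MucinDuctal cells and 380 to 637 CPM in Tuft-1 cells. Il25, the cytokine by which tuft cells alert innate lymphoid cells, was found in 2-week mouse 2 at 1.25 CPM and in no other mouse, against 71.7 to 149 CPM in Tuft-1 cells. Alox5ap, which presents arachidonic acid for leukotriene synthesis, was at 13.9, 99.8, 36.8 and 79.6 CPM against 1088 to 1494 CPM, and immune cells, which make it, held 201 to 281 CPM. Over the 20 mature tuft genes, 4 were higher than in MucinDuctal cells (Avil, Alox5ap, Hpgds and Ltc4s) and none lower, with 13 having enough counts and a member median of 0.48. Against Tuft-1 cells 14 of the 20 were lower and none higher, with 18 having enough counts and a member median of -3.01. Only 13 had enough counts against MucinDuctal cells, so some of the 18 passed through Tuft-1 cells alone, which favours a lower call. For the 11 early tuft genes the counts were 3 higher than MucinDuctal (Gnat3, Gng13 and Trpm5, member median 0.84) and 7 lower than Tuft-1 (member median -2.24), of 8 and 9 with enough counts.

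By the rule for naming genes, the 10 that most exceeded MucinDuctal cells were Ltc4s, Il13ra1, Zfp428, Avil, Gng13, Smpdl3a, Pou2f3, Nrep, Sox4 and Trpm5. Il13ra1, a subunit of the receptor for interleukin 13, the cytokine that expands tuft cells, was at 194, 452, 405 and 574 CPM, against 20.7 to 39.0 CPM in MucinDuctal and 665 to 713 CPM in Tuft-1 cells. Smpdl3a, a phosphodiesterase, was at 528, 1040, 1052 and 1429 CPM and was above the Tuft-1 cells of each mouse, which held 366, 740, 177 and 233 CPM. The largest deficits against Tuft-1 cells included those of Rgs13, Fyb, Adh1, Dclk1, Alox5ap, Sh2d6, Kctd12, Gnat3 and Rgs2. Fyb, an adaptor of immune receptor signalling, was at 13.9, 44.1, 0 and 3.32 CPM against 837 to 1348 CPM.

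The endocrine program was close to background. Neurog3 was at 0, 28.1, 10.5 and 43.1 CPM in the progenitors, 0.232, 8.42, 0.390 and 4.12 CPM in MucinDuctal cells and 2630, 2322, 2406 and 2287 CPM in EEC-Progenitor cells. Immune cells held 0.171, 5.50, 1.83 and 22.8 CPM. The summed progenitors thus exceeded free RNA in 3 mice, and 2-week mouse 1 had no Neurog3 UMI. In 2-week mouse 2 single progenitors held 23, 16 and 12 Neurog3 UMIs, and no other held more than 8. In each 4-week mouse all Neurog3 UMIs, 2 and 13, came from 1 cell, and the 1 of 4-week mouse 2 was among 3 progenitors with 308 to 971 UMIs of Mup20, a gene made mainly by liver. Insm1, an early target of Neurog3, was at 27.8, 6.57, 0 and 3.32 CPM, and the 27.8 CPM rest on 2 UMIs. EEC-Progenitor cells held 788 to 1001 CPM of Insm1, and immune cells 1.19 to 12.2 CPM. Neurod1, which acts after Neurog3, was at 13.9, 2.81, 0 and 0 CPM, Nkx2-2 at 0, 8.76, 0 and 0 CPM, and Pax4 had no UMI in any progenitor. The 20 endocrine commitment genes together summed to 97.2, 116, 63.1 and 59.7 CPM in progenitors and to 5541, 6060, 5590 and 5618 CPM in EEC-Progenitor cells (-6.06 ± 0.41). Of these 20 genes, 16 were lower than in EEC-Progenitor cells and none higher, with a member median of -3.20. Most passed the count filter only through EEC-Progenitor cells, since 17 of the 20 were too low in both progenitors and MucinDuctal cells. That largely fixed the direction of the count. Against MucinDuctal cells none was higher or lower, 17 were too low to compare, and the ratio of sums was 0.28 ± 0.15.

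Genes that accompany Neurog3 were partly raised over MucinDuctal cells. Of 14 such helper genes, Gadd45a, Hes6 and Mdk were higher than in MucinDuctal cells and none was lower, with 11 having enough counts and a member median of 0.85, whereas 12 of the 14 were lower than in EEC-Progenitor cells. Mdk, the secreted growth factor midkine, was at 0, 83.8, 42.1 and 39.8 CPM, against 3.56 to 11.3 CPM in MucinDuctal and 627 to 989 CPM in EEC-Progenitor cells. The 14 granin and hormone-processing genes summed to 13.9, 45.0, 89.4 and 59.7 CPM, a range that overlaps the 36.3 to 253 CPM of immune cells. Ghrl, which encodes the hormone ghrelin, was at 83.3, 296, 47.3 and 43.1 CPM, against 267, 104, 1682 and 102 CPM in immune cells. It was above the immune cells in 2-week mouse 2 alone. The largest deficits against EEC-Progenitor cells were in Insm1, Neurod1, Neurog3, Tubb3, Vwa5b2, Nkx2-2, Cacna2d1, Runx1t1, Celf3 and Miat. In the other direction, Spp1, Colca2, Cldn2, Ascl2, Gng13, Smpdl3a, Zfp36l2, Oxct1, Tmem45a and Zfp36l1 were the most raised. Colca2, which encodes a partner of Pou2f3 in tuft cells, was at 55.5, 136, 137 and 149 CPM against 2.94 to 9.92 CPM.

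Sox4 together with growth-associated cytoskeletal and chromatin genes was above MucinDuctal cells, and its direction relative to Tuft-1 cells turned on Sox4, which is also one of the markers of the label. The 15 genes summed to 6123, 6017, 8098 and 8399 CPM in progenitors, 1195 to 2136 CPM in MucinDuctal cells, 9201 to 9868 CPM in EEC-Progenitor cells and 6274 to 7438 CPM in Tuft-1 cells. Sox4 alone made up 44.0%, 49.3%, 57.7% and 52.3% of the progenitor sums, against 16.5% to 27.0% in Tuft-1 and 35.2% to 39.2% in EEC-Progenitor cells. The other 14 genes summed to 3430, 3049, 3428 and 4002 CPM in progenitors, below the 5841 to 6366 CPM of EEC-Progenitor and the 5094 to 5871 CPM of Tuft-1 cells in each mouse, and above the 972 to 1701 CPM of MucinDuctal cells. Of the 15 genes, 3 were lower than in EEC-Progenitor cells (Hmgn2, Marcks and Tuba1a) and 1 lower than in Tuft-1 cells (Tuba1a), with none higher than in either and 11 having enough counts. Of the 15, 7 were higher than in MucinDuctal cells (Sox4, Hmgb3, Marcks, Marcksl1, Tubb5, Tuba1a and Stmn1) and none lower, with 11 having enough counts and a member median of 0.69. Stmn1, the microtubule-destabilising protein stathmin, was at 805, 459, 826 and 925 CPM, against 53.5, 127, 28.5 and 51.4 CPM in MucinDuctal and 780 to 966 CPM in EEC-Progenitor cells. The tubulin Tuba1a remained below both fates, at 181, 211, 105 and 172 CPM against 514 to 671 CPM in EEC-Progenitor and 720 to 1752 CPM in Tuft-1 cells.

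Transcripts of the G2/M phase of the cell cycle were few in progenitors, and the share of cycling cells cannot be read from them at these counts. The 22 G2/M genes summed to 0, 64.1, 5.26 and 13.3 CPM, below the 45.1, 184, 14.0 and 40.1 CPM of MucinDuctal cells in each mouse. Mki67, which marks cycling cells, was detected in 8 of 156 progenitors (5.13%, 95% exact Clopper-Pearson interval 2.24 to 9.85%) and in 4.59% of MucinDuctal cells. Cdk4, the cyclin D kinase, was at 305, 353, 410 and 511 CPM against 101 to 164 CPM in MucinDuctal cells. It was the only gene higher than in those cells in a 12-gene list of D cyclins, their kinases and kinase inhibitors. Cdkn1a, the cell cycle inhibitor p21, was at 97.2, 97.3, 5.26 and 106 CPM, against 778 to 1424 CPM in EEC-Progenitor cells.

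Acinar transcripts, the past identity of the marked cells, did not separate the progenitors from MucinDuctal cells. The 30 acinar enzyme genes summed to 46348, 14462, 26096 and 24777 CPM in progenitors and to 29832, 13978, 28916 and 23481 CPM in MucinDuctal cells (-0.01 ± 0.12), and none of the 24 with enough counts was higher or lower. Immune cells held 41039, 30040, 36968 and 115046 CPM of the same enzymes, more than the progenitors in every mouse but 2-week mouse 1. Ptf1a, the acinar transcription factor whose locus drives the Cre, was found at 5.00 CPM in 2-week mouse 2 and in no other mouse, and immune cells held 3.66 to 6.75 CPM. Reg1, a secreted protein of injured acinar cells, was at 51527 CPM in 2-week mouse 1 against 6485, 7240 and 6576 CPM in the other mice; the first value rests on 5 cells.

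The position of the progenitors between types was measured gene by gene. Among 122 genes that were at least 2 log2 units higher in Tuft-1 than in MucinDuctal cells, the median gene stood at 36.3% of that log2 distance in the progenitors. The figure places levels between types, and no path between them was tested. The medians by mouse were 41.0%, 25.5% and 48.8% in 2-week mouse 2, 4-week mouse 1 and 4-week mouse 2. Of the 122 genes, 40 were past 50% and 14 were under 10%. Among 170 genes higher by the same measure in EEC-Progenitor cells, the median gene stood at 12.9%, with 12.0%, 13.9% and 13.9% by mouse. Of these, 24 genes were past 50% and 80 under 10%. For genes lower in the target type by the same measure the medians were closer, 38.0% over 87 genes for Tuft-1 and 31.1% over 84 genes for EEC-Progenitor cells. For the genes higher in the target type, the tuft figure exceeded the endocrine figure in each of the 3 mice, and the difference was not tested. The gene sets were picked from these same counts. The EEC-Progenitor cells include 57 that share the broader Tuft/EEC.Progenitor label with 148 of the progenitors, so the endocrine figure also depends on where the finer labels split that group.

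**Figure D3:**
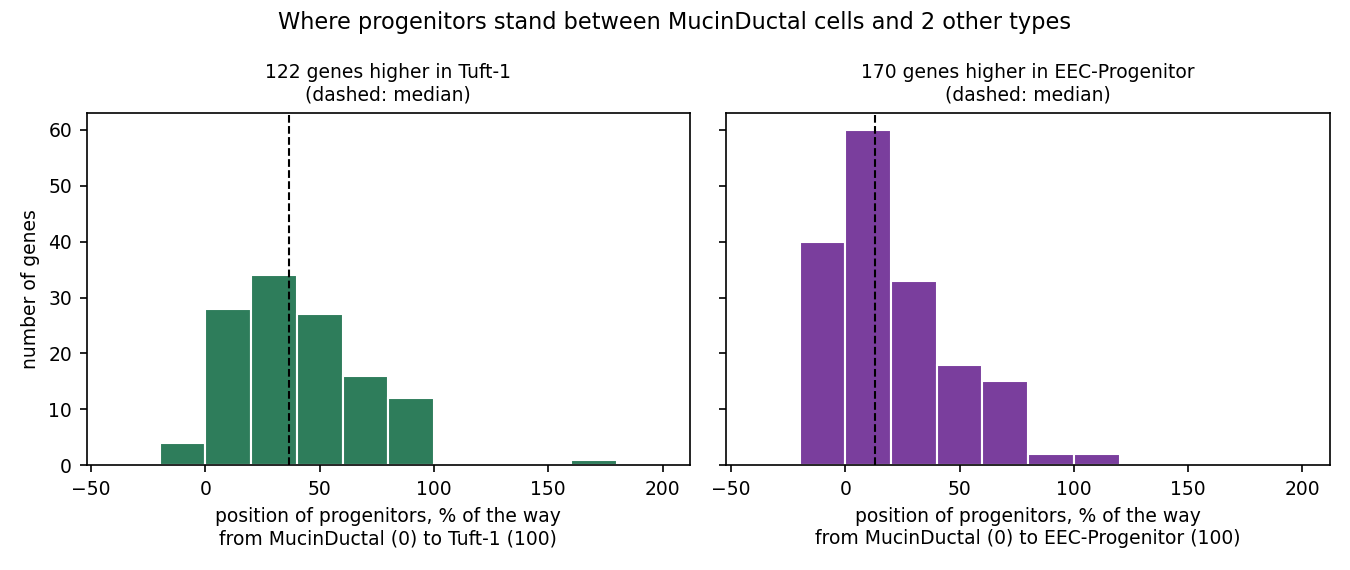
Histograms of the position of progenitors along the log2 distance from MucinDuctal cells (0%) to Tuft-1 cells (100%, 122 genes, left) and to EEC-Progenitor cells (100%, 170 genes, right), taking the genes higher in the target type; the vertical axis counts genes and the dashed line is the median. The medians are 36.3% toward Tuft-1 and 12.9% toward EEC-Progenitor cells, and the genes were picked from these same counts.

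Across 4091 genes the log level of the progenitors had a Pearson r of 0.950, 0.864 and 0.871 with MucinDuctal cells in 2-week mouse 2, 4-week mouse 1 and 4-week mouse 2. With Tuft-1 cells r was 0.854, 0.745 and 0.847, and with EEC-Progenitor cells 0.776, 0.711 and 0.770. MucinDuctal cells were the nearest of the 3 types in each mouse; these values are a description over genes that share a library, and the pools differ in depth.

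Few genes stood well above all 3 types. Among genes with a mean of at least 50 CPM in the progenitors, 156 were above each of the 3 types in all 3 mice. Of these, 1, Clca3b, was above each by at least 1 on the log2 scale. The genes at that level were not counted, so the 156 have no share beside them. They lie among the 4091 genes that reach 50 CPM in the progenitors or at least 1 of the 3 types. Clca3b, a member of the calcium-activated chloride channel regulator family, was at 208, 51.9, 195 and 149 CPM, against 2.06 to 4.02 CPM in MucinDuctal, 14.5 to 39.6 CPM in EEC-Progenitor and 0 to 5.53 CPM in Tuft-1 cells. It was detected in 85 of 156 progenitors, or 54.5%, and in 3.29% of MucinDuctal cells. Its relative Clca3a2 was at 153, 21.3, 121 and 73.0 CPM against 5.32 to 10.7 CPM in MucinDuctal cells; how reads of such near-identical family members were shared out is not given in the sources used here, so the level of each is uncertain. The other genes named by this rule were Ptprk, Tgif1, 1110038B12Rik, Smpdl3a, Homer2, Vtcn1, Hbegf and Adam10. Hbegf, an epidermal growth factor receptor ligand, was at 292, 239, 84.1 and 133 CPM, above the same mouse's other types in all 4 mice, and Tgif1, a repressor of TGF-beta signalling, was at 27.8, 65.4, 78.9 and 76.3 CPM.

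A droplet holding a MucinDuctal and a Tuft-1 cell would also give levels between the 2 types; whether such droplets are among the progenitors was not tested, and genes above both types were counted. Of 9111 genes, 5 (0.0549%) were above both by at least 1 on the log2 scale in each of the 3 mice, 691 (7.58%) were above both by any amount and 1523 (16.7%) lay between them in each mouse. They included Clca3b, Arnt2, Tnfsf10 and Rnf122, and the last 3 were singled out after their values had been seen. Arnt2, a partner of bHLH-PAS transcription factors, was at 69.4, 23.8, 57.8 and 53.1 CPM, against at most 1.54 CPM in MucinDuctal and 13.6 CPM in Tuft-1 cells.

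Mucous and tuft transcripts were detected in the same single progenitors, and Muc6 was also frequent in immune cells. Muc6 was detected in 126 of 156 progenitors (80.8%, exact interval 73.7 to 86.6%), in 94.4% of MucinDuctal cells and in 39.9% of the immune cells, whose median depth of 4958.5 UMIs was lower than the 18833 UMIs of progenitors. Ltc4s was detected in 153 (98.1%, 94.5 to 99.6%), against 25.3% of MucinDuctal and 15.9% of immune cells. Both were found in 123 progenitors (78.8%), against 24.4% of MucinDuctal, 16.1% of EEC-Progenitor, 47.1% of Tuft-1 and 6.98% of immune cells. Pou2f3 was detected in 104 (66.7%, 58.7 to 74.0%), against 2.51% of MucinDuctal, 2.81% of EEC-Progenitor, 91.4% of Tuft-1 and 0.984% of immune cells. Hes1 was detected in 74 (47.4%, 39.4 to 55.6%), against 72.6% of MucinDuctal, 6.14% of EEC-Progenitor, 4.29% of Tuft-1 and 7.04% of immune cells. Hes1 and Pou2f3 were found together in 46 progenitors (29.5%), 38 of them in the deeper 2-week mouse 2.

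Detection of Pou2f3 with and without the mucous and Notch genes was compared in 2-week mouse 2, as a description. Pou2f3 was detected there in 71.7% of 99 progenitors with Muc6 and in 73.7% of 19 without, and in 67.9% of 56 progenitors with Hes1 and in 75.8% of 62 without. Neurog3 was detected in 20 progenitors (12.8%, 8.01 to 19.1%), against 1.61% of MucinDuctal, 2.38% of Tuft-1, 1.70% of immune and 85.2% of EEC-Progenitor cells. By mouse these were 0 of 5, 18 of 118, 1 of 13 and 1 of 20 progenitors, so the share rests on 2-week mouse 2. The 0 of 5 allow a share of cells with a Neurog3 UMI of up to 52.2% (upper exact limit), and cells without a UMI may still express the gene. Pou2f3 and Neurog3 were found together in 9 progenitors, all in 2-week mouse 2. Neurog3 was detected there in 10.6% of 85 progenitors with Pou2f3 and in 27.3% of 33 without, and after thinning to 5000 UMIs these shares were 5.13% and 8.79%. Intervals cover counting error only.

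Because progenitors of 2-week mouse 2 were deeper, each cell was also thinned at random to 5000 UMIs, leaving out shallower cells (4 in 2-week mouse 2 and 1 in 4-week mouse 2). Pou2f3 was then detected in 16.0%, 34.2%, 35.4% and 27.6% of progenitors by mouse, Hes1 in 36.0%, 23.7%, 29.6% and 22.1%, and Muc6 in 24%, 61.8%, 77.7% and 47.4%. Immune cells thinned in the same way held Muc6 in 19.1%, 27.8%, 31.1% and 50.9%. In 4-week mouse 2 the share of progenitors with Muc6 was thus no higher than that of immune cells, and in 2-week mouse 1 it rests on 5 cells. Thinned Tuft-1 cells of 4-week mouse 2 held Muc6 together with Ltc4s in 26.9%. Thinned EEC-Progenitor cells of that mouse held Muc6 together with Sox4 in 30.9%. Whether immune cells overstate free Muc6 was not tested. Hes1 and Pou2f3 were found together in 0%, 6.80%, 10.4% and 4.74% of thinned progenitors, and in at most 0.894% of thinned immune cells. Gnat3 was detected in 5.00%, 23.4%, 7.69% and 26.6%, which made it, at equal depth, rarer than Trpm5 (34.0%, 32.0%, 24.2% and 38.4%) in each mouse. Neurog3 was detected in 0%, 7.54%, 3.08% and 5.26%. The thinned shares of Pou2f3 lay between 27.6% and 35.4% in the 3 mice with at least 10 progenitors, so the higher unthinned share of 2-week mouse 2 (72.0%, against 53.8% and 55.0% at 4 weeks) was not seen at equal depth.

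**Figure D4:**
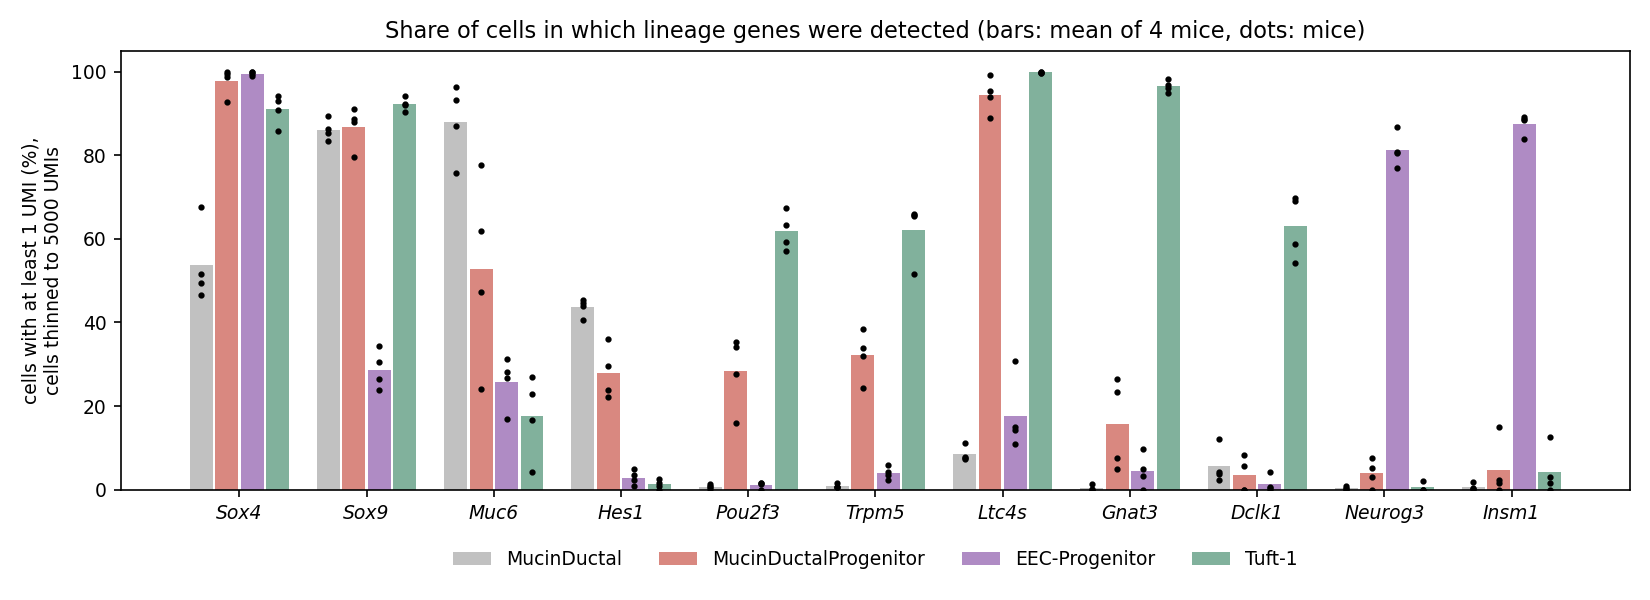
Share of cells with at least 1 UMI of 11 lineage genes after thinning to 5000 UMIs (bars, mean of 4 mice; dots, mice) in MucinDuctal cells, mucin/ductal progenitors, EEC-Progenitor and Tuft-1 cells. Sox4 and Ltc4s are found in nearly all progenitors, Muc6, Hes1, Pou2f3 and Trpm5 in part of them, and Dclk1, Neurog3 and Insm1 in few.

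The progenitors varied among themselves. In the 118 progenitors of 2-week mouse 2 the SPEM list took a median of 1.85% of a cell's UMIs, with a range of 0.0756 to 14.6%. The mature tuft list took a median of 0.287% (0.0834 to 0.847%), and the early tuft list 0.0718% (0 to 0.344%). The medians of Tuft-1 cells of that mouse were 1.17% and 0.930%, so the highest early tuft value of any progenitor there lay below the Tuft-1 median. Across those 118 cells Spearman's rho was -0.29 between the SPEM and mature tuft lists, -0.13 between the SPEM and early tuft lists, 0.31 between the duct and early tuft lists, and 0.25 between a cell's UMIs and its early tuft share. These are descriptions of cells from 1 library whose shares sum to a common total.

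The authors' broader labels of EYFP-positive cells split the progenitors in 2. There, 148 of 156 are Tuft/EEC.Progenitor and 8 are Tuft, 4 in 2-week mouse 2 and 4 in 4-week mouse 2. The 8 had, pooled, 68.6 CPM of Muc6 and 884 CPM of Tff2, against 750 and 4151 CPM in the 148. They had 168 CPM of Pou2f3 and 2470 CPM of Ltc4s, against 85.7 and 1056 CPM, and no UMI of Dclk1 or Neurog3. The other 57 cells of the Tuft/EEC.Progenitor label are EEC-Progenitor cells in the finer labels. These 57 held, pooled, 618 CPM of Neurog3, 4444 CPM of Clu and 706 CPM of Ltc4s, whereas the 333 EEC-Progenitor cells under the EEC label held 2733, 590 and 52.3 CPM. Pou2f3 was at 15.7 CPM in the 57 and had no UMI in the 333. Pooled values mix mice in unequal numbers and carry no error of their own.

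The share of progenitors did not differ between the times beyond the spread of the mice. They made up 1.44% (exact interval 0.468 to 3.32%), 10.5% (8.78 to 12.5%), 2.58% (1.38 to 4.37%) and 3.27% (2.01 to 5.00%) of the tuft and enteroendocrine table. The mean was 5.98 ± 6.42% at 2 weeks and 2.92 ± 0.487% at 4 weeks (SD, n = 2 mice each; two-sided exact permutation test, p = 1, smallest possible p 0.333). Of all labelled EYFP-positive cells they made up 0.168%, 3.29%, 0.462% and 0.503% (1.73 ± 2.21% against 0.483 ± 0.0292%; exact permutation p = 1). Both 4-week mice lay between the 2-week mice, and without 2-week mouse 2 the 4-week means were the higher, by 1.49 and 0.315 percentage points. Shares of sorted cells depend on the sort and on what survived dissociation.

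Over time, 4 of 3709 genes tested in the progenitors passed edgeR's quasi-likelihood test with Benjamini-Hochberg adjustment at 0.05, 2 higher at 4 weeks (0.0539%) and 2 lower (0.0539%). At an unadjusted p of 0.05, 86 genes (2.32%) passed. Reg3b, a secreted antimicrobial lectin induced by inflammation, was at 680, 875, 26.3 and 53.1 CPM and fell by 4.34 on the log2 scale (SE 0.38, edgeR adjusted p = 9.1e-06). It was detected in 3 of 5 and 85 of 118 progenitors at 2 weeks and in 1 of 13 and 5 of 20 at 4 weeks, and it kept its call in each alternative run. Reg3b in MucinDuctal cells was at 361, 1927, 257 and 568 CPM, where the times overlap. In EEC-Progenitor cells it was at 112, 112, 27.8 and 29.8 CPM and in Tuft-1 cells at 20.4, 40.1, 16.6 and 7.68 CPM, lower in both 4-week mice than in both 2-week mice in each type. Immune cells held 121, 230, 126 and 179 CPM of Reg3b, above the EEC-Progenitor and Tuft-1 cells of every mouse and above the progenitors of the 4-week mice. Cblif was at 97.2, 48.8, 305 and 477 CPM and rose by 2.67 (SE 0.40, edgeR adjusted p = 0.0085). MucinDuctal cells held 5297, 132, 4132 and 2347 CPM of Cblif and EEC-Progenitor cells 1183, 39.3, 249 and 385 CPM, highest in 2-week mouse 1 and lowest in 2-week mouse 2 in both types. Immune cells held 73.3, 11.0, 110 and 162 CPM of Cblif, also higher in both 4-week mice. Of the 144 Cblif UMIs of progenitors in 4-week mouse 2, 127 came from 1 cell, and without it the level there was 61.6 CPM, between those of the 2-week mice; without the robust setting the adjusted p was 0.086.

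The other 2 calls also rested on few cells. Mup20, a major urinary protein made mainly by liver, was at 0, 1.88, 1651 and 4526 CPM (log2 change 10.54, SE 0.86, edgeR adjusted p = 0.010). Its UMIs came from 4 cells of 2-week mouse 2, 2 of 4-week mouse 1 and 3 of 4-week mouse 2. In 3 cells, with 308, 359 and 971 Mup20 UMIs, it made up 1.90%, 3.07% and 8.67% of all their UMIs. MucinDuctal cells held at most 1.03 CPM, the other Mup genes had no UMI in progenitors, and the 3 cells held no UMI of Alb, the albumin gene of liver. In the same order the 3 cells held 33, 26 and 27 UMIs of Ltc4s and 92, 54 and 5 of Sox4. They held 20, 8 and 1 of Clu, 0, 1 and 2 of Spp1, 4, 0 and 1 of Muc6 and none of Pou2f3. The cell with 359 Mup20 UMIs also held all 13 Neurog3 UMIs of 4-week mouse 2. Among the progenitors that the broader label also calls progenitors the adjusted p was 0.50, with a log2 change of 11.30. Sst, the somatostatin gene, was at 41.7, 68.5, 5.26 and 6.63 CPM (log2 change -3.47, SE 0.65, edgeR adjusted p = 0.047). Of 219 Sst UMIs in 2-week mouse 2, 182 came from 1 cell, and without it the level was 11.7 CPM. Immune cells held 436, 31.5, 18.3 and 514 CPM of Sst, more than the progenitors in every mouse but 2-week mouse 2. Sst had too few counts to be tested without 2-week mouse 2, or among the progenitors that the broader label also calls progenitors. The call was lost under DESeq2 (adjusted p = 1.00), without the robust setting (0.19) and without either 4-week mouse (0.097 and 0.50), while the log2 change stayed between -3.29 and -3.62 in these fits.

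**Figure D5:**
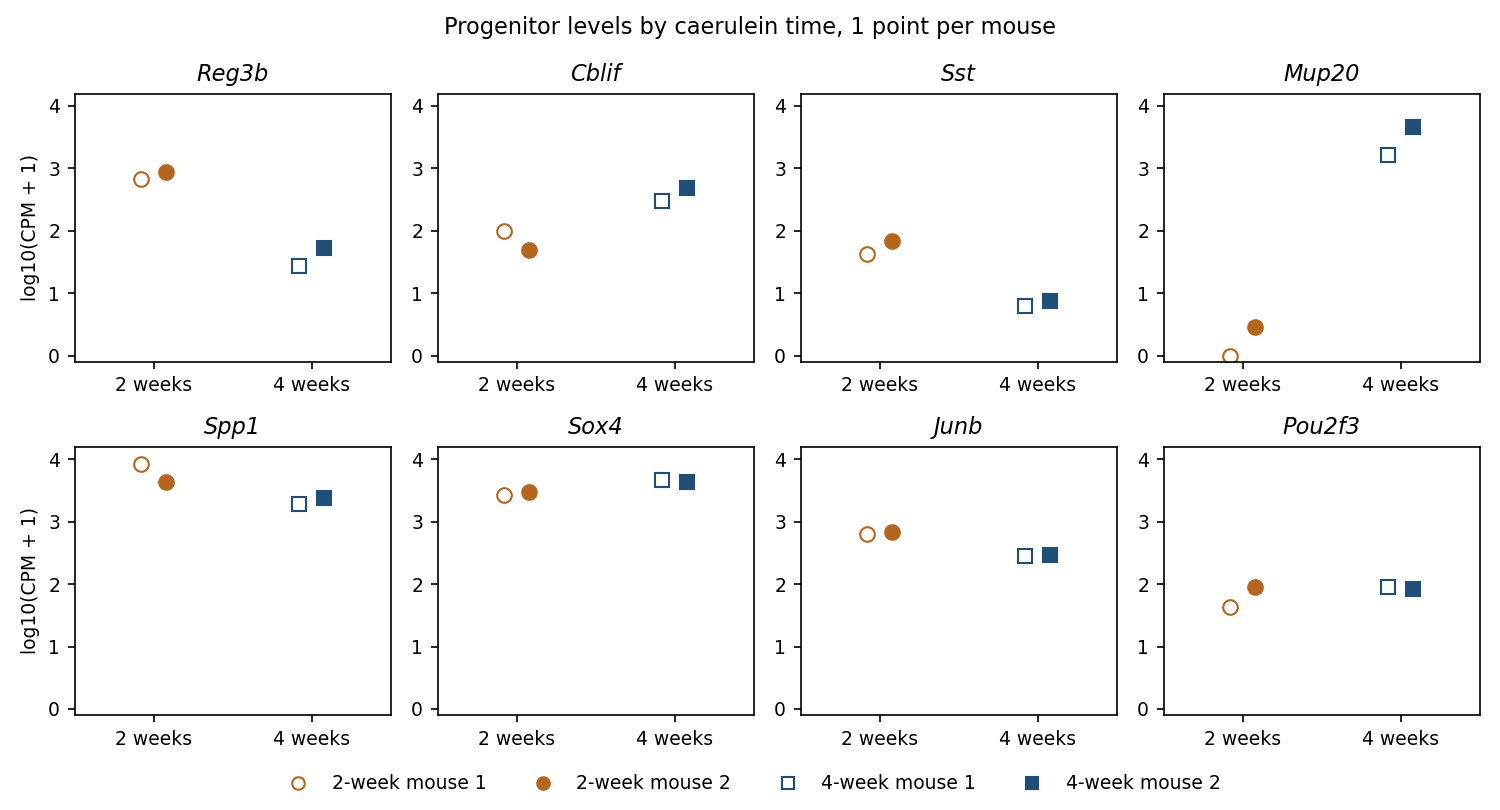
Levels of 8 genes in progenitors by treatment time (log10 of CPM + 1, 1 point for each mouse, 2 mice at each time). Reg3b and Sst are lower and Cblif and Mup20 higher at 4 weeks; Spp1, Junb, Sox4 and Pou2f3 did not pass the test.

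Lineage genes of the progenitors did not pass the test over time. Spp1 was lower in both 4-week mice than in both 2-week mice (log2 change -1.63, SE 0.31, edgeR adjusted p = 0.067). Sox4 was higher in both 4-week mice (0.58, SE 0.25, edgeR adjusted p = 1.00). Pou2f3 had a change of -0.02 (SE 0.38) and Ltc4s of 0.04 (SE 0.31), both with an edgeR adjusted p of 1.00. Tested were 6 genes of the tuft transcription factor list, 6 early tuft, 7 mature tuft, 10 SPEM, 11 duct and 4 Notch genes. Of these none was called. In that order the member medians were 0.11, -0.42, -0.35, 0.06, -0.09 and 0.02, beside 0.01 over all genes. None of the 20 endocrine commitment genes had enough counts. The immediate early genes, which dissociation also induces, had none of 11 called and a median of -1.0; Junb was at 625, 677, 279 and 295 CPM (-1.28, edgeR adjusted p = 0.13). Of these 11 genes, 7 had an unadjusted p under 0.05, and their part in the other differences was not tested.

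The time effect was also set against that of MucinDuctal cells of the same mice, in a fit with mouse as a block. Of 12188 genes, 8 (0.0656%) had a higher and 8 (0.0656%) a lower change in progenitors by edgeR's quasi-likelihood test with Benjamini-Hochberg adjustment. For the median gene this fit took the spread wholly from a trend shared over genes. Reg3b went down further in progenitors than in MucinDuctal cells, by -3.27 on the log2 scale (SE 0.37, edgeR adjusted p = 1.6e-14). Spp1 did so by -1.19 (SE 0.18, edgeR adjusted p = 1.7e-07), and without 4-week mouse 1 its adjusted p was 0.57 with a difference of -0.86. Sox4 differed by 1.04 (SE 0.23, edgeR adjusted p = 0.0058) and Stmn1 by 1.59 (SE 0.35, edgeR adjusted p = 0.0054), each with progenitors higher at 4 weeks relative to MucinDuctal cells. In MucinDuctal cells both genes were highest in 2-week mouse 2. Without that mouse the adjusted p was 0.42 for Sox4 and 0.99 for Stmn1, and neither was called without 4-week mouse 1 or without 4-week mouse 2. The difference itself was 0.71 for Sox4 and 0.56 for Stmn1 without 2-week mouse 2. The median gene stood at 0.52 in that fit, so Stmn1 was near it and Sox4 little above it. Without each 4-week mouse the difference was 1.09 and 0.92 for Sox4 and 1.25 and 1.80 for Stmn1, with the median gene at -0.16 and -0.21. DESeq2 called 2 of the 16 genes, Mup20 and Reg3b. The other genes named by rule were Mup20 (8.10), Gm2115 (4.21), Tubb2b (2.19), Sst (-3.80) and Neat1 (-1.45), and of all 9 Reg3b alone kept its call in every alternative. With 1 mouse left out, Sst ranged from -1.98 to -4.89, Gm2115 from 2.49 to 12.02 and Tubb2b from 1.51 to 12.39, where 12.02 and 12.39 are fitted against 2-week progenitors that hold no UMI of either gene. Without 2-week mouse 2 the adjusted p of Mup20 was 0.82, with a difference of 14.33 fitted against 2-week progenitors that hold no Mup20 UMI.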

How the data were processed

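The authors deposited UMI counts per gene and cell as count matrices, together with tables of cell labels. Cell Ranger 4.0.0, Seurat 3.2.3 and the mm10 build are named per the submitters' processing notes. Cells were taken by deposited label. The gene lists and members were chosen with earlier results of these data known. Each library was taken as 1 mouse from its title. The p-values rest only on the spread between these samples, which edgeR shares over genes. In the fit of the difference the median prior degrees of freedom were infinite, against 14.9 in the time fit. For the median gene its own spread therefore had no weight there, and a gene that varies more than the trend can get too small a p-value. Counts of 32288 genes were summed per mouse and type and tested with edgeR 4.0.16 (quasi-likelihood, robust, TMM, filterByExpr; R 4.3.3) at a Benjamini-Hochberg adjusted p of 0.05. DESeq2 1.42.0 was an alternative. Types were compared within mice by log2((CPM + 10)/(CPM + 10)) over genes with a mean of at least 10 CPM in either type, with no test. Immune cells were unlabelled cells with at least 2 of 6 markers. Thinned shares are means of 20 draws, from at most 400 cells for each mouse and type. No doublet caller was run; UMI values are given instead, and whether the authors removed doublets is not given in the sources used here.

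Beside list genes, the text names up to 10 genes in each direction and type comparison, ranked by the smallest ratio over mice, with a mean of at least 50 CPM in the higher type. Over time it names up to 5 called genes in each direction whose mice do not overlap. A separate rule names up to 10 genes above all 3 types. Arnt2, Tnfsf10 and Rnf122 were chosen after their values were seen. Some genes that these rules select are not reported here. Gif, an older symbol of Cblif, has no row, so the SPEM list holds 13 measured genes. On simulated data the time fit over 3709 genes recovered 80 of 100 genes changed 4-fold and 89 of 100 changed 8-fold, with 3 false calls. Of these changed genes 91 and 89 passed its filter. The fit of the difference over 12188 genes recovered 41 and 66 of 100, with 2 false calls. Each gene was drawn with the spread of the shared trend and no other difference between mice or types. The false calls therefore say nothing about genes that vary more than the trend or rise in single cells. Alternatives changed the normalization, filter, robust setting, tool, cells and mice. The one with 2-week mouse 1 included in the ratios was chosen after seeing the data.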

Additional observations from a re-analysis of the deposited data

How the results depend on the processing

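Of the 9 genes named for the difference over time, 8 lost their call without at least 1 mouse and Reg3b did not; all 9 kept their direction, and Neat1 stayed between -1.34 and -1.68 while its call was lost. The difference in share between times ranged from -7.59 to 1.49 points of the tuft and enteroendocrine table, and from -2.80 to 0.315 points of EYFP-positive cells, as each mouse was left out; it reversed without 2-week mouse 2, and the cause was not tested. The 4 time calls became 27 with no filter, 2 without the robust setting and 16 to 59 with 1 mouse left out, where the lone mouse was assumed to vary like the others. DESeq2 made 6 calls, of which 3 were shared. The 16 calls for the difference from MucinDuctal cells became 2 under DESeq2, 26 under upper quartile scaling, 25 without the robust setting and 8 to 71 with 1 mouse left out. With the mouse block the median gene was at -0.10, and without 2-week mouse 2 it was at 0.52. The 0.56 of Stmn1 in that fit is near this median, so its kept direction there says little about Stmn1 itself. No paired analysis was possible because the labels give the mice no shared number across times.

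Among list ratios, the Notch list against Tuft-1 cells was near 0 (0.0058): it was 0.025 without acinar enzymes, 0.029 as a mean over cells, -0.0043 without the top 10% of cells by UMIs and 0.15 with 2-week mouse 1. Against EEC-Progenitor cells it was -1.24 as a mean over cells, -1.34 without the top 10% and -1.21 with 2-week mouse 1. The tuft transcription factor list over MucinDuctal cells was at 1.00, 1.04 and 0.76 under the same 3 settings. Duct genes were at -0.65 as a mean over cells and -0.67 without the top 10%, which also put endocrine commitment genes at 0.55. The Sox4 and chromatin list against Tuft-1 cells ranged from -0.028 to 0.33 with 1 mouse left out, and was below 0 without 4-week mouse 2. With Sox4 left out of that list, chosen after seeing the data, it was -0.64 against Tuft-1, -0.80 against EEC-Progenitor and 1.47 against MucinDuctal cells. Depth limits detection: over 3 mice the mean share with Pou2f3 was 60.3%, and 32.4% both after thinning and with at least 2 UMIs. Hes1 went from 47.1% to 25.1% and 31.3%, and Muc6 from 79.5% to 62.3% and 62.2%. Of the values for the main comparisons, with 1 mouse left out 78 stayed within their spread (counts within 1.5 times), 7 moved further and 3 reversed; under other settings these numbers were 144, 25 and 2.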
